A study of Drosophila melanogaster with 8 samples.

Results

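The genes described here are the 3 fibroblast growth factor (FGF) ligands of Drosophila melanogaster, branchless (bnl), pyramus (pyr) and thisbe (ths), the FGF receptor heartless (htl) and the adaptor stumps. They were chosen by gene name, 5 of the 15682 gene rows counted, and all 5 were tested. RNA was sequenced from Ras/Src-tumours, pooled larval eye disc tissue in which an eyeless-driven FLP recombinase made clones that expressed a ras1 G12V transgene (activated Ras1) and were mutant for csk, a kinase that restrains Src. All 8 libraries carried these alleles, and no tissue without a tumour was analysed here. The control diet (CD) held 0.15 M sucrose and its 4 libraries were dissected at day 8 after egg laying, and the high-sugar diet (HSD) held 1.0 M sucrose and its 4 libraries were dissected at day 14, so diet and age cannot be told apart. The clones were driven in eye disc cells, and the dissected tissue could also hold cells outside the clones.

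FGFs are secreted proteins that bind receptor tyrosine kinases with the help of heparan sulphate on the cell surface. In Drosophila, Bnl activates the receptor Breathless (Btl) and guides the branching of the tracheal airways, whereas Pyr and Ths activate Htl, which is needed for the spreading of the mesoderm and for muscle, heart and glial development. Stumps is a cytoplasmic adaptor that both receptors need to switch on the Ras-ERK cascade. The gene btl was not analysed here, so the receptor for Bnl has no value below.

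Total counts ranged from 11558860 to 19963565 per library. The quasi-likelihood test of edgeR called 52.1% of 9257 genes at an adjusted p under 0.05, 25.9% as higher and 26.2% as lower in HSD. Levels are CPM, counts per 1e+06 on library sizes scaled by TMM (trimmed mean of M values), and the CPM ranges of the diets did not overlap for 50.5% of genes (24.9% higher, 25.6% lower in HSD). Of the calls, 49.8% were higher in HSD on this scale, against 38.1% with total counts alone and 21.4% with scaling to ribosomal protein genes, and these scales put the median gene at -0.13 and -0.34 (log2). A second principal component, 10.3% of the variance, held CD replicate 1 and HSD replicate 4 at one end and the other 6 libraries at the other. Low counts were less even than counting error alone gives, since genes expected at 5 to 20 counts were at 0 in 16.1% to 41.0% of cases. The members held between 93 counts (htl, HSD replicate 2) and 5118 counts (bnl, HSD replicate 3) in a library. The study describes the libraries of each diet as biologically independent, each from pooled tissue, and whether they came from separate cultures is not given in the sources used here.

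The FGF genes moved in different directions between the diets. One ligand rose (bnl), pyr fell, and ths fell with a call near the threshold. The receptor htl fell, and no change was detected in the adaptor stumps. These 4 calls among 5 members compare with 52.1% of all genes called, and 3 members (bnl, pyr and htl) had no overlap between diets against 50.5% of all genes, so the number of calls does not set the members apart. Their sizes and directions are given gene by gene.

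**Figure D1:**
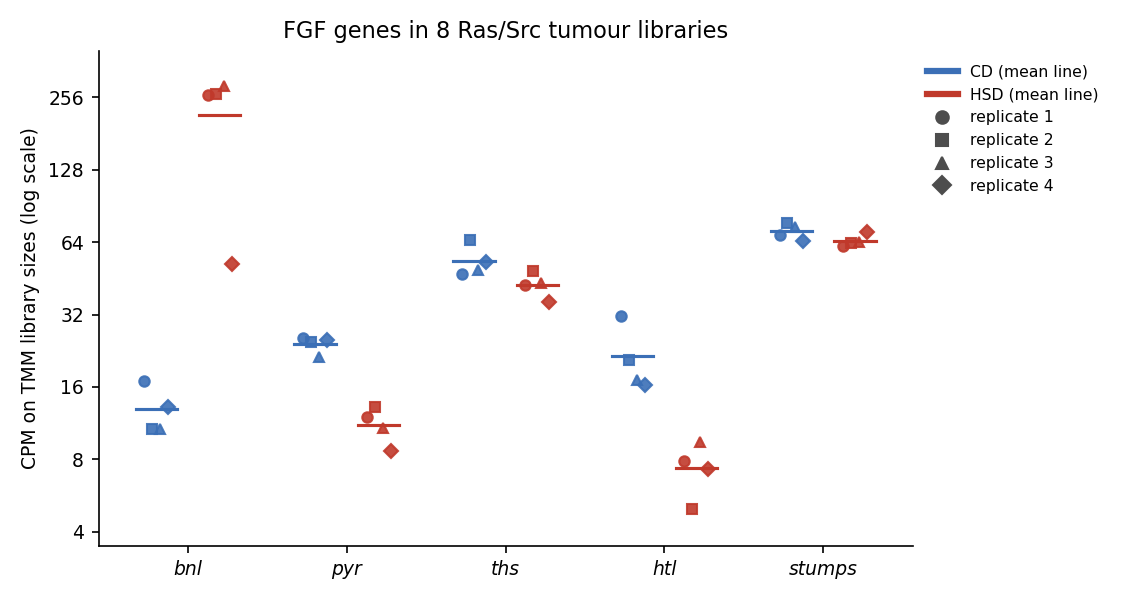
CPM of bnl, pyr, ths, htl and stumps (log axis) in 4 CD libraries (blue) and 4 HSD libraries (red), 1 point per library with the replicate number as its shape and a line at the mean of each diet. The HSD libraries of bnl lie at 51.9 to 284 CPM, all above the CD libraries (10.7 to 16.9 CPM), those of pyr and htl lie wholly below CD, and those of ths and stumps overlap with CD.

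The ligand gene bnl (FBgn0014135) is protein coding and lies on the minus strand of chromosome 3R, from 19794073 to 19836817 in the BDGP6 build. Its level was 16.9, 10.7, 10.7 and 13.2 CPM in CD replicates 1 to 4. In HSD it was 261, 264, 284 and 51.9 CPM. Every HSD library was above every CD library, and the lowest of them, replicate 4, was still 3.07-fold above the highest CD library. That library was nevertheless 5.20-fold below the mean of the other 3 HSD libraries, which lay close together at 270 ± 12.7 CPM (SD, n = 3). The means were 12.9 ± 2.92 and 215 ± 109 CPM (SD, n = 4 each), a 16.7-fold rise, which on the log2 scale was 4.07 ± 0.46 (SE) in the edgeR fit (adjusted p = 3.26e-05). A rise at least as large was seen in 0.486% of genes tested. The study had picked out bnl from its own RNA profiling of these tumours as a strongly raised secreted factor. The rank and p-value of bnl here are therefore no independent evidence. Besides the profiling, the study reported higher bnl by qPCR and stronger Bnl protein staining in HSD than in CD tumours. Those measurements were not analysed here. The biological coefficient of variation that edgeR fitted to bnl, 0.404, was larger than that of 99.0% of the 1425 genes of like level, whose median was 0.122.

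In HSD replicate 4 the glycolytic enzyme gene Ldh, a known target of the hypoxia response like bnl, was also low, at 289 CPM against 1130 to 1300 CPM in the other 3 HSD libraries. The same library held the smallest total of the 4, 14109310 counts, and the most fat body transcript (a summed 3427 CPM of 7 markers against 856 to 1473 CPM). The sum of 8 haemocyte markers was also highest in it (382 CPM against 201 to 234 CPM). That sum rested mostly on Hml (126 CPM) and Col4a1 (123 CPM). Of the others, NimC1 was lowest there (0.79 CPM), and eater and He were not highest. These markers were named after their values were seen. The part of any of these features of the library in its low bnl value was not tested.

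The ligand genes pyr (FBgn0033649) and ths (FBgn0033652) are neighbours on the plus strand of chromosome 2R, from 11712263 to 11726345 and from 11756817 to 11814424 in BDGP6, with a gap of 30.5 kb between them that holds no other protein coding gene. The level of pyr was 25.6, 24.5, 21.4 and 25.1 CPM in CD replicates 1 to 4. In HSD it was 11.9, 13.2, 10.8 and 8.65 CPM. All HSD libraries were below all CD libraries, and the spread within a diet was small beside the gap. The means were 24.1 ± 1.91 and 11.1 ± 1.94 CPM (SD, n = 4 each), 2.17-fold lower in HSD, which was -1.11 ± 0.17 (SE) as a log2 fold change in the edgeR fit (adjusted p = 0.000269).

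The level of ths was 47.1, 65.5, 49.0 and 53.2 CPM in CD replicates 1 to 4. In HSD it was 42.3, 48.4, 43.2 and 36.2 CPM. The diets overlapped, because HSD replicate 2 was above CD replicate 1, and CD replicate 2 stood highest. The log2 fold change was -0.34 (95% interval -0.62 to -0.05, adjusted p = 0.0486 by edgeR). Leaving out CD replicate 2 gave -0.205 (edgeR, adjusted p = 0.182), and the threshold was also missed without CD replicate 3 or 4 or HSD replicate 1, 3 or 4, where edgeR gave -0.36 to -0.26 and adjusted p from 0.0575 to 0.111. The change in ths therefore lay near the threshold, and its direction was the same in all 8 of these fits.

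The receptor gene htl (FBgn0010389, chromosome 3R, minus strand, 18045216 to 18052984 in BDGP6) encodes the FGF receptor for Pyr and Ths. Its level was 31.6, 20.7, 17.1 and 16.4 CPM in CD replicates 1 to 4. In HSD it was 7.84, 4.99, 9.45 and 7.28 CPM. The lowest CD library was 1.73-fold above the highest HSD library, and CD replicate 1 stood 1.75-fold above the mean of the other 3 CD libraries. The means were 21.4 ± 7.02 and 7.39 ± 1.84 CPM (SD, n = 4 each), 2.9-fold lower in HSD, which was -1.53 ± 0.27 (SE) as a log2 fold change in the edgeR fit (adjusted p = 0.00072). Without CD replicate 1 the log2 fold change was -1.26, still past the threshold. A fall at least as large was seen in 13.4% of genes tested.

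The adaptor gene stumps (FBgn0020299, also known as dof or heartbroken, chromosome 3R, plus strand, 14577217 to 14608079 in BDGP6) varied by 7.76% in CD and 5.90% in HSD (coefficient of variation). Its level was 68.8, 77.2, 74.1 and 64.8 CPM in CD replicates 1 to 4. In HSD it was 61.9, 63.6, 63.8 and 70.6 CPM. The diets overlapped, and HSD replicate 4, the lowest HSD library for bnl, pyr and ths, was the highest for stumps. The log2 fold change was -0.13 (95% interval -0.33 to 0.06, adjusted p = 0.23 by edgeR). On scales set by total counts alone or by ribosomal protein genes, which lowered all genes in HSD, it was -0.27 and -0.47 and passed the threshold (adjusted p = 0.0284 and 0.00413 by edgeR).

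No exon of the 5 genes shared a base with an exon of another gene in the BDGP6 annotation. Small genes lie within introns of ths (CG13193, CG42493 and Ir48c), bnl (a tRNA gene) and stumps (a long non-coding RNA). The authors aligned reads to an older build, dm3, so positions and lengths here belong to the later annotation.

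**Figure D2:**
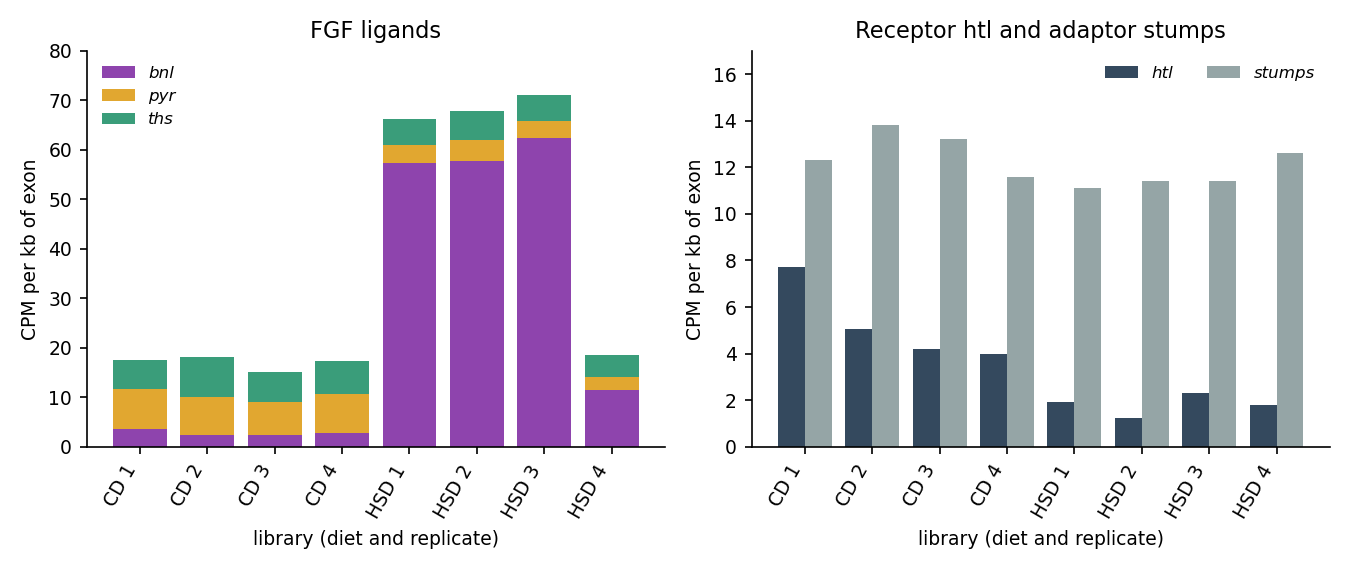
Levels in each library as CPM per kb of exon, with the 3 ligands stacked at left and htl and stumps side by side at right, 1 bar or bar pair per library. The ligand stack is 15.1 to 18.1 in CD and mostly pyr and ths, and 66.3 to 71.1 in HSD replicates 1 to 3 and mostly bnl, while HSD replicate 4 reaches 18.6.

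Levels of different genes were compared as CPM per kb of exon, a level per length. In CD stumps was the highest of the 5 in all 4 libraries, at 11.6 to 13.8, and bnl the lowest in all 4, at 2.35 to 3.71. Between them pyr (6.65 to 7.96), ths (5.84 to 8.11) and htl (4.0 to 7.71) overlapped, so their order is not given by these libraries. In HSD bnl was the highest in replicates 1 to 3, at 57.3 to 62.4, and second to stumps in replicate 4, at 11.4 against 12.6. Below them the order was ths (4.48 to 6.0), pyr (2.69 to 4.11) and htl (1.22 to 2.31) in all 4 HSD libraries, with no overlap between neighbours.

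The share of bnl in the summed level of the 3 ligands followed from these values. It was 21.2%, 13%, 15.6% and 16.8% in CD replicates 1 to 4. In HSD it was 86.5%, 85.1%, 87.8% and 61.3%. Ligand transcript was thus mostly pyr and ths in every CD library and mostly bnl in every HSD library, replicate 4 included. Taken as a share of ligand counts without length, bnl held 10.6% (Wilson 95% interval 9.30% to 12.2%) in CD replicate 2, its lowest CD library, and 53.7% (51.0% to 56.3%) in HSD replicate 4, its lowest HSD library. Such intervals treat reads as independent and leave out the spread between libraries. They may be too narrow, as PCR copies of a molecule were counted without identifiers to tell them apart. The summed ligand level was 17 ± 1.32 CPM per kb in CD and 56 ± 25 in HSD (SD, n = 4 each), but HSD replicate 4, at 18.6, lay only just above the highest CD library, at 18.1. The share and the sum are described with no test, as the genes were chosen with earlier results of these data known.

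The summed level of the Htl ligands fell together with their receptor, though not by the same amount. Per kb of exon, pyr went from a mean of 7.52 in CD to 3.47 in HSD. The change in ths was smaller, from 6.65 to 5.27, with overlapping ranges and a call near the threshold. The summed level of pyr and ths was 14.2 ± 1.26 CPM per kb in CD and 8.74 ± 1.21 in HSD (SD, n = 4 each), with no overlap. It exceeded htl by 1.79, 3.12, 3.04 and 3.61 times in CD replicates 1 to 4. In HSD the ratio was 4.68, 8.29, 3.77 and 4.04. The ranges did not overlap, but HSD replicate 3 and CD replicate 4 differed little. The balance within the pair also differed, as ths stood at 0.733 to 1.06 times the level of pyr in CD and at 1.41 to 1.67 times in HSD. Adaptor transcript exceeded receptor transcript in every library, stumps being 1.59 to 3.16 times htl in CD and 4.94 to 9.31 times in HSD.

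**Figure D3:**
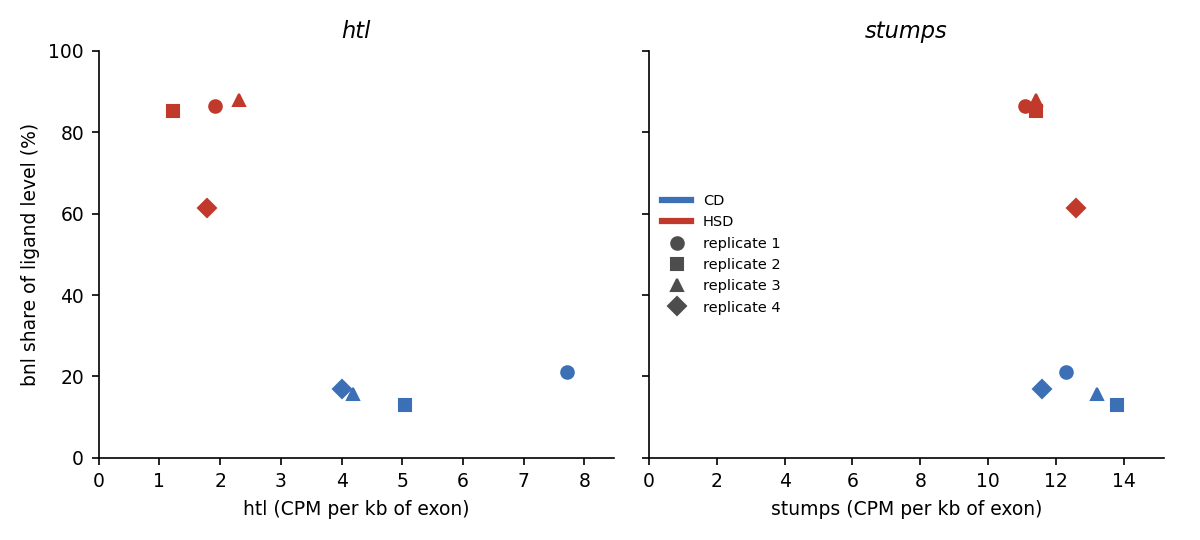
Share of bnl in the summed ligand level (percent, vertical axis) against the level of htl (left) and stumps (right) in CPM per kb of exon, 1 point per library, CD in blue and HSD in red. HSD libraries combine a bnl share of 61.3% to 87.8% with htl at 1.22 to 2.31, CD libraries a share of 13% to 21.2% with htl at 4.0 to 7.71, and stumps lies at 11.6 to 13.8 in CD and 11.1 to 12.6 in HSD.

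Set against each other, a high bnl share went with low htl, and both differed between the diets without overlap. The level of stumps overlapped between the diets, at 11.6 to 13.8 CPM per kb in CD and 11.1 to 12.6 in HSD. The libraries formed 2 clusters by diet with 4 libraries in each, so no correlation is given and the relation within a diet could not be tested. Within CD, replicate 1 had both the highest bnl share and the highest htl. Within HSD, replicate 4 had the lowest bnl share with an htl level, 1.78, inside the range of the other 3, and the highest stumps.

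Heparan sulphate genes came next, because FGFs reach their receptors through these sugar chains. Of 18 genes listed, 14 were tested, and 5 were higher and 4 lower in HSD. The median log2 fold change was 0.04, against 0.00 for all genes. Here and for the lists below, 25.9% of all genes were called higher and 26.2% lower. Sulf1, an enzyme that removes sulphate from heparan sulphate outside the cell, rose from 171 ± 8.54 to 762 ± 88.1 CPM, by 2.16 (SE 0.09) on the log2 scale. The gene dally, a glypican core protein that carries the chains, rose from 410 ± 35.0 to 1267 ± 174 CPM (1.63, SE 0.10). Both heparan sulphate 3-O-sulphotransferase genes fell, Hs3st-B from 14.3 ± 3.55 to 0.977 ± 0.575 CPM (-3.89, SE 0.43) and Hs3st-A from 14.6 ± 3.61 to 0.388 ± 0.532 CPM (-5.15, SE 0.86). Hs3st-A had 0 counts in HSD replicates 3 and 4, and without HSD replicate 2 its log2 fold change was -6.50. The genes sotv and frc were listed at 0 in all 8 libraries, as was the ribosomal protein gene RpL15, so a gene at 0 throughout was not read as unexpressed. Scaled to ribosomal protein genes, 3 were higher and 6 lower.

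The cascade from receptor to ERK held genes that moved in either direction. Of 15 genes listed, 13 were tested, 3 higher and 4 lower, against 25.9% and 26.2% of all genes (median log2 fold change -0.08). Among those higher was Ras85D, the gene of Ras1 itself, at 294 ± 13.03 and 588 ± 49.7 CPM (1.00, SE 0.07), whose counts may hold the transgene. RasGAP1, which switches Ras off, rose by 0.54. Scaled to ribosomal protein genes RasGAP1 was at 0.20 and past no threshold, and the list split into 1 higher and 10 lower. Cbl, a ubiquitin ligase that removes activated receptors, changed by -0.94 (SE 0.10) and csw, the phosphatase of the SHP2 family that acts beside Stumps in FGF signalling, by -0.75 (SE 0.09), both adjusted p under 0.05 by edgeR. The ERK gene rl was listed at 0 in all 8 libraries.

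**Figure D4:**
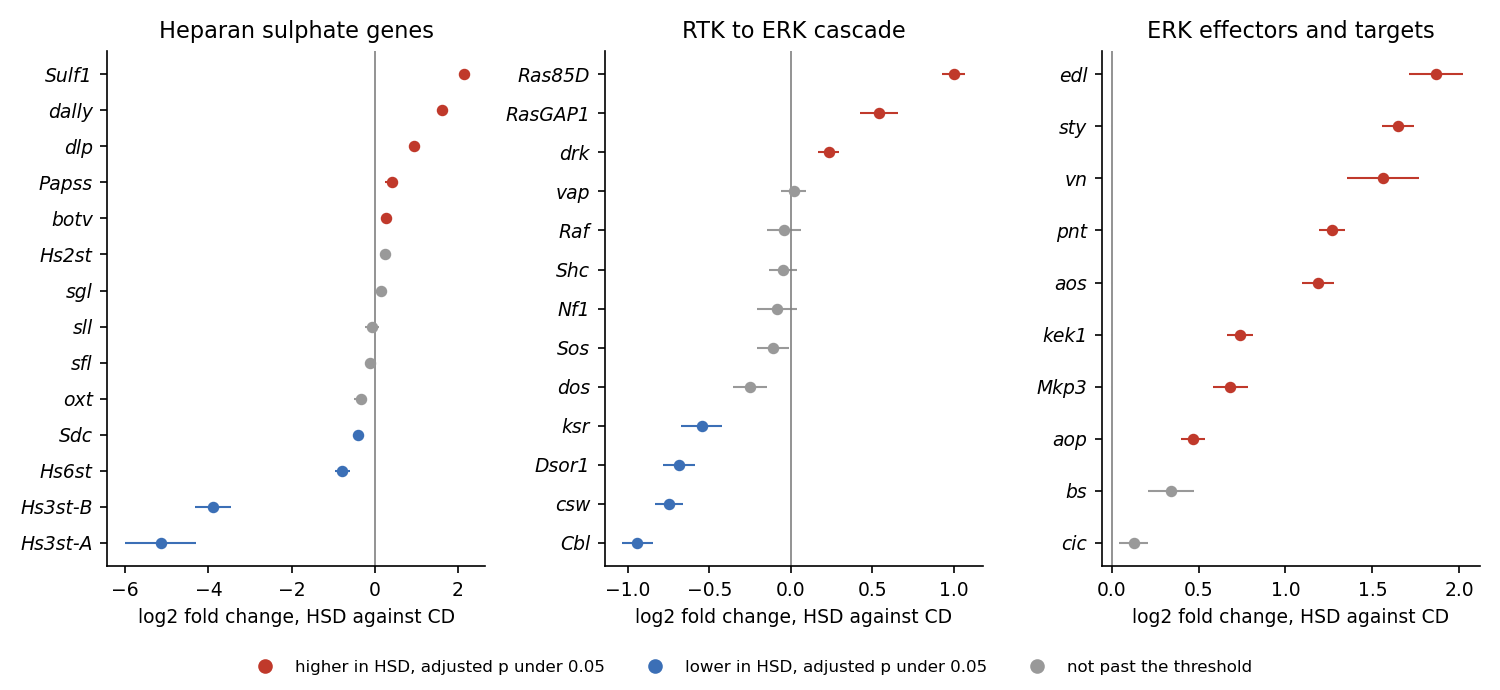
Log2 fold change in HSD against CD (points, with bars of 1 SE) for the tested heparan sulphate genes (14), cascade genes (13) and ERK effector and target genes (10), each panel with its own axis. The first panel spreads from -5.15 (Hs3st-A) to 2.16 (Sulf1), the second from -0.94 (Cbl) to 1.00 (Ras85D), and all 10 genes of the third are above 0, though cic is at -0.21 when scaled to ribosomal protein genes and at -0.0081 with total counts alone.

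Of 10 ERK effectors and targets, all tested, 8 were higher in HSD (median log2 fold change 0.96, against 25.9% of all genes called higher). The remaining pair, named after their values were seen, were the repressor cic (0.13, and -0.21 under ribosomal protein scaling) and bs (0.34, adjusted p = 0.051 by edgeR), the gene of the serum response factor that acts in tracheal terminal cells. With bs the count was 9 by limma-voom (adjusted p = 0.0396), without CD replicate 1 and without CD replicate 1 and HSD replicate 4 (adjusted p = 0.019 and 0.0459 by edgeR), and it was 7 under ribosomal protein scaling. The gene sty, sprouty, a feedback inhibitor of Bnl and other receptor signals, rose from 227 ± 29.4 to 711 ± 43.9 CPM (1.65, SE 0.09). Its HSD values were 689, 769, 720 and 667 CPM. In HSD replicate 4, where bnl was 5.20-fold below the other 3, sty stood only a little lower than in them. The drop was larger for edl (99.1 CPM against 129 to 151 CPM) and vn (39.7 CPM against 62.6 to 75.8 CPM). Mkp3 and aos were also lowest there, bs was highest, and pnt, aop, cic and kek1 lay inside the range of the other 3. These levels were picked after they were seen, and the part of bnl in them was not tested. The gene edl, a regulator of the Ets factors downstream of ERK, rose by 1.87 (SE 0.15). The tumour cells carried activated Ras1 on both diets, and these genes answer to every receptor that signals through Ras.

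Genes of convertases and of the hypoxia response were mixed. Fur1 and Fur2 encode convertases that cut secreted precursors, and they changed by 0.55 and -0.31 (adjusted p under 0.05 by edgeR for both, though not for Fur1 under ribosomal protein scaling). Of 7 genes of the hypoxia response, 5 were tested, 1 higher and 2 lower, against 25.9% and 26.2% of all genes (median -0.28). Ldh rose by 4.95 (SE 0.50), and by 5.70 without CD replicate 1 and HSD replicate 4, when 2 genes of the list were higher and 1 lower. The gene tgo, the partner of the hypoxia factor, changed by -0.28 and lost the threshold without CD replicate 1 or 2 or HSD replicate 1, 3 or 4 (adjusted p from 0.0510 to 0.0846 by edgeR), and chrb, an inhibitor of growth signalling, fell by 0.76 on the log2 scale. The genes sima and Hph were not analysed here.

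In bulk tissue, fewer cells of a type and less RNA per cell cannot be told apart, so markers of the cells that are known to use these genes are given beside them. Glial cells of the eye disc carry htl. Of 11 glial markers, 7 were lower and 3 higher in HSD, against 26.2% and 25.9% of all genes. Their median log2 fold change was -2.06. The glial identity gene repo, named after its values were seen, was at 59.0 to 75.2 CPM in CD and 14.3 to 17.2 CPM in HSD, a log2 fold change of -2.06 beside -1.53 for htl. The early glial factor gcm changed by -4.20 and Gs2, a glutamine synthetase of glia, by -3.99, while moody, a receptor of the blood-brain barrier glia, rose by 1.38 and loco, a regulator of G protein signalling, by 0.57 (0.22 and past no threshold under ribosomal protein scaling, where 1 marker was higher and 8 lower). The summed level of the 11 markers overlapped, at 1033 to 1130 CPM in CD and 984 to 1124 CPM in HSD. Its largest terms were nrv2 (336 CPM in CD and 334 in HSD) and Gli (258 and 341 CPM), named after their values were seen. The sum therefore did not follow the 7 lower markers. The part of glial cells in the fall of htl was not tested.

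Mesoderm and myoblasts also carry htl and stumps. Of 14 markers, 9 were tested, 4 higher and 2 lower, against 25.9% and 26.2% of all genes (median 0.62). Their summed level was 456 to 507 CPM in CD and 614 to 736 CPM in HSD. Poxm, a mesodermal factor, rose by 5.28 (SE 0.38), sns, an adhesion protein of fusing myoblasts, by 1.00, whereas zfh1 changed by -1.46 and kirre by -0.65. Scaled to ribosomal protein genes, 2 were higher and 3 lower. The defining myoblast gene twi, named after its values were seen, was at 0 to 5.04 CPM and was not called, and bin was at 0 in all 8 libraries. Mef2, named after its values were seen, was at 87.2 CPM in CD replicate 1, the library with the highest htl, against 51.1 to 59.4 CPM in the other CD libraries. The other tested markers did not rise with it as a set. Of CD libraries, replicate 1 was the lowest for twi, zfh1, how, sns and mbc, the highest for Him and Poxm, and between for kirre. These levels were also picked after they were seen. The summed level in CD replicate 1, 463 CPM, lay inside the range of the other CD libraries. That library also held 4599 CPM of 6 salivary gland glue genes against 5.31 to 16.5 CPM in the rest of CD. The part of these marker levels or of the glue genes in the htl level of CD replicate 1 was not tested.

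Differentiating photoreceptors express ths. All 10 photoreceptor and neuron markers were lower in HSD, with a median log2 fold change of -2.34 beside -0.34 for ths, and their summed level was 1381 to 1546 CPM in CD and 164 to 272 CPM in HSD. The synaptic genes nSyb (-4.31) and brp (-3.69) changed most. Of the 6 retinal determination genes, which mark the labelled eye disc, all were detected on both diets, and 4 were lower in HSD, with dac at -1.32 and eya at -1.31 (median -0.94). Without CD replicate 1 a further one was called higher.

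Tracheal cells carry the Bnl receptor and grow into the discs. Of 12 tracheal markers, 9 were tested, 7 higher and 1 lower in HSD, against 25.9% and 26.2% of all genes (median 0.75). Their summed level was 2216 to 2485 CPM in CD and 3155 to 3991 CPM in HSD. The tracheal selector gene trh was at 8.87 to 13.7 CPM in CD and 13.9 to 39.1 CPM in HSD, 1.43 ± 0.30 (SE) on the log2 scale in the edgeR fit (adjusted p = 0.00199). The chitin deacetylase gene serp rose by 1.15, and Gasp, a chitin-binding protein of the tracheal lining, changed by -0.94. In HSD replicate 4 the summed tracheal level, 3155 CPM, was the lowest of the HSD libraries and above all CD libraries, as was bnl. Of single markers, serp was lowest there (354 CPM against 580 to 679 CPM in the other HSD libraries), as were pio, verm, uif, kni and knrl. Gasp was highest there and vvl lay inside the range. The gene trh was lowest in HSD replicate 3 (13.9 CPM), the library with the highest bnl, and stood at 27.1 CPM in HSD replicate 4. These levels were picked after they were seen. Several of these markers are also expressed in epidermis or disc epithelium.

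Cell types that are not known for FGF genes were counted too. Of 8 haemocyte markers 2 were lower, Pxn (-0.58) and ush (-0.53), with summed levels of 236 to 304 CPM in CD and 201 to 382 CPM in HSD. The call of Pxn was lost in 6 of the 8 fits that left out 1 library, all but those without CD replicate 2 or HSD replicate 4. Of 7 fat body markers 1 was lower, Lsp1alpha (-3.48). Without HSD replicate 4 it was at -4.87 and 4 of the 7 were lower, and without CD replicate 1 or HSD replicate 1 a single one was higher. Of the 6 glue genes, edgeR called 0 (0 also at an unadjusted p under 0.05), limma-voom called 0 and DESeq2 gave no adjusted p, while edgeR called 2 as higher without CD replicate 1 and 1 as lower without HSD replicate 2.

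**Figure D5:**
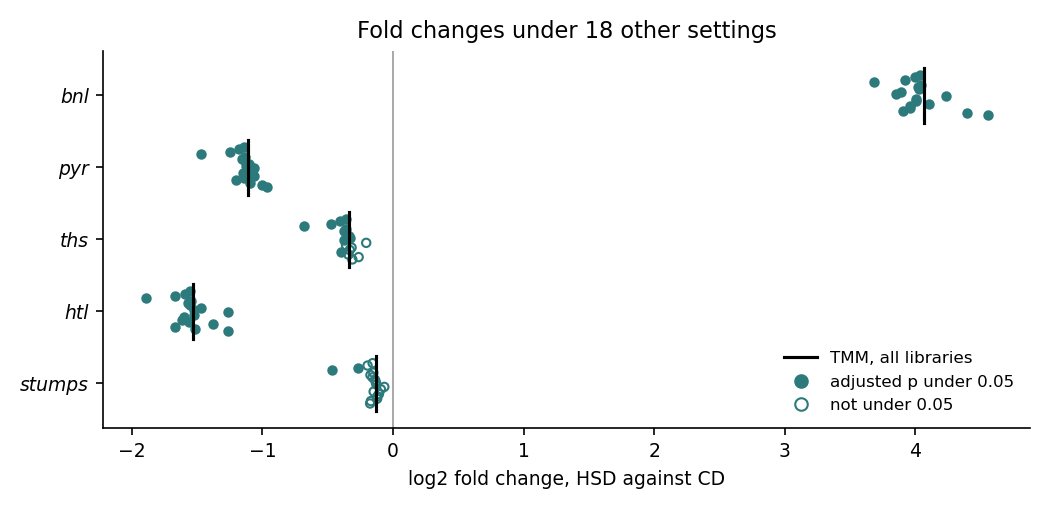
Log2 fold change in HSD against CD of each member with TMM and all libraries (black line) and under 18 other settings (points, filled where the adjusted p was under 0.05). Values span 3.68 to 4.56 for bnl, -1.47 to -0.97 for pyr and -1.90 to -1.26 for htl, all filled, while ths and stumps hold open points.

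The rise of bnl and the falls of pyr and htl held their direction and call in all 18 other settings tried, which covered scaling, filter, test, each library left out and replicate number as a term. The log2 fold change of bnl lay between 3.68 (ribosomal protein scaling) and 4.56 (without CD replicate 1 and HSD replicate 4), that of pyr between -1.47 and -0.97, and that of htl between -1.90 and -1.26. For ths the call held in 11 of 18 settings.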

How the data were processed

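RNA from pooled dissected tumours was sequenced as paired reads from a stranded mRNA kit. The authors trimmed reads with Trim Galore 0.4.4, aligned them to dm3 with TopHat2 2.0.11 and deposited raw counts of reads per gene from featureCounts, 1 column per library. The strand setting and the treatment of reads with several alignments are not given in the sources used here. Columns were assigned by the names in the sample labels, 4 CD and 4 HSD libraries. Of 15682 identifiers, 15002 (95.7%) matched a symbol.

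Genes passing filterByExpr were tested with edgeR 4.0.16 in R 4.3.3 (TMM, quasi-likelihood test on diet, two-sided, Benjamini-Hochberg adjustment over all genes tested, threshold 0.05). The standard error was the log2 fold change over the square root of F, and 95% intervals used the fit's degrees of freedom. CPM were divided by kb of merged exons (BDGP6) to compare genes. Alternatives were DESeq2 1.42.0, limma-voom (limma 3.58.1), 4 other scalings, 2 other filters, each library left out, replicate number as a block and other gene lengths. Leaving out CD replicate 1 and HSD replicate 4 together was chosen after seeing the data. The test was tested on simulated counts. No pair of libraries of a diet agreed within sampling noise (chi-square per degree of freedom at least 11.5).

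The members, lists and tests were chosen with earlier results of these data known. The text names the members, at most 2 rises and 2 falls per list among genes called, and the 2 genes most like each member, and the members of these lists named for a count of 0, a missed threshold, a marker level or a change of sign under an alternative (among them twi, drk, botv, vap, ey, Sgs4 and Sgs5) were chosen after their values were seen. List genes not analysed here, because their identifiers were not among the rows or their names were ambiguous, were btl, trol, ttv, cnk, sima, Hph, dys, tyn and hbs.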

Additional observations from a re-analysis of the deposited data

Results flagged for a closer look

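Each group of 4 libraries was checked for a library that stood apart, by Dixon's ratio of its gap to the nearest library over the whole range, on log2 values for levels, against the 95% critical value. The check covered the members, 5 quantities made from them, the named list genes with counts in every library and total counts, 86 groups in all, and 8 passed, where chance gives about 4.3.

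HSD replicate 4 made up 5 of the 8. It was low for bnl (51.9 CPM against 261 to 284 CPM, ratio 0.95), for the bnl share of the summed ligand level (61.3% against 85.1% to 87.8%, ratio 0.901) and for the summed ligand level (18.6 against 66.3 to 71.1 CPM per kb, ratio 0.948), which all rest on the same bnl counts. It was also low for Ldh (289 against 1130 to 1300 CPM, ratio 0.903) and for total counts (14109310 against at least 19017382, ratio 0.838).

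HSD replicate 1 was low for brp (11.8 against 19.3 to 19.8 CPM, ratio 0.949) and nSyb (4.75 against 9.22 to 10.2 CPM, ratio 0.872). CD replicate 3 was low for loco (78.5 against 103 to 107 CPM, ratio 0.868). None of the groups of pyr, ths, htl or stumps passed.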

How the results depend on the processing

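The rise of bnl and the falls of pyr and htl kept direction and call under all 18 alternatives. The change in ths lay between -0.40 and -0.205 with 1 library left out and was -0.31 (adjusted p = 0.0543 by edgeR) without CD replicate 1 and HSD replicate 4. For stumps, total counts alone gave -0.27 and ribosomal protein scaling -0.47, both past the threshold. That scaling put the median gene at -0.34 (log2) in these data. It gave 1075 genes higher and 3943 lower against 2400 and 2423, and turned botv (-0.077), drk (-0.11), vap (-0.32) and ey (-0.30) below 0. Sgs4 and Sgs5 were above 0 without CD replicate 1 (range with 1 library left out -4.16 to 2.54 and -4.25 to 4.79), and at 2.47 and 4.97 without HSD replicate 4 as well. The bnl share differed between diets by 61.0 to 71.3 percentage points (63.5 with all libraries and merged exons) under other lengths and with libraries left out.

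Replicate number as a block gave 4609 calls against 4823 and changed no call of a member. Libraries of the same number did not deviate together (r from -0.152 to 0.0748 over 4 pairs), and no label ties them. Every member held at least 93 counts in every library.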

Other observations

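The genes whose pattern was most like each member were found by Pearson's r of log2 CPM over the 8 libraries among 7413 genes with a mean of at least 10 CPM in one diet. The libraries fall into 2 diets, so r mostly reflects the difference between them, and it is given as a description. Nearest to bnl were ImpL2 (r = 0.994), a secreted protein that binds insulin-like peptides, at 328 ± 43.7 and 1771 ± 644 CPM, and Kal1 (r = 0.994), a secreted protein whose human counterpart binds heparan sulphate, at 82.0 ± 1.25 and 182 ± 32.7 CPM in CD and HSD (SD, n = 4 each). Nearest to pyr were the kinase gene Pitslre (r = 0.996, log2 fold change -0.72) and CG4629 (0.991, -4.65).

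Nearest to htl were PIP4K (r = 0.986), a phosphoinositide kinase with a log2 fold change of -0.44, and E(spl)malpha-BFM (0.983), a Notch target with -0.77 (SE 0.12 and adjusted p = 0.000318 by edgeR). Nearest to ths were CG13300 (r = 0.985, -0.27) and CG1523 (0.967, -0.16, not called). The nearest to stumps were Set8 (r = 0.948), a histone methyltransferase, and her (0.944), a zinc finger gene of sex determination, and neither was called, with log2 fold changes of -0.13 and -0.15.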
